A study of Mus musculus with 72 samples.

Results

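Ribosomal protein genes encode the protein subunits of the cytosolic ribosome, and here their RNA was followed through pregnancy and nursing in 4 regions of the mouse brain. The genes were chosen by name and gene type from the deposited count table. A gene was taken where its Ensembl ID maps to a protein-coding gene whose symbol begins with Rpl or Rps followed by a digit, an a or p0 to p2. Names beginning with Rps6k, which are S6 kinases, and names ending in -ps with or without a number, which mark pseudogenes, were left out. This gave 86 of the 39179 gene IDs in the table, and 82 of them were expressed, which means that in some stage of a region each of the 3 mice had an FPKM of 1 or more. The same 82 passed in each of the 4 regions, 34 of them with Rps names and 48 with Rpl names. The other 4 were Rpl10l, Rpl13, Rpl39l and Rpl3l. The rule takes names as they stand, so Rps19bp1, a protein that binds Rps19, and Rpl7l1, a relative of Rpl7 involved in making ribosomal RNA, are among the 82 without being subunits of the finished ribosome. The rule used no difference between stages or regions.

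The small subunit of the ribosome, whose proteins carry Rps names, reads the mRNA, and the large subunit, whose proteins carry Rpl names, joins the amino acids. Most, though not all, of the proteins of a ribosome are needed in about the same amount. In vertebrates the mRNAs of these proteins begin with a cytosine followed by a run of pyrimidines, the TOP motif. Through this motif mTOR and Larp1 control their translation together. Their transcripts are short and abundant, and they have left many processed pseudogenes in the genome, so reads of one gene can also match another place.

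Female C57BL/6J mice, 18 in number and 3 at each of 6 stages, each gave tissue of the hypothalamus, hippocampus, neocortex and cerebellum for RNA-seq, so there are 72 libraries. The stages were age-matched virgins that cycled at random, PC14 and PC16 after conception, and nursing dams at PP1, PP3 and PP10 after birth. Together the 5 stages of pregnancy and nursing are called dams, and mice B, M and O are the 3 virgins. The sample labels and the methods of the paper number the plug day differently, so the gestational day behind PC14 and PC16 is uncertain by 1 day. A library held between 8875029 and 14208864 counts (median 12234109). Libraries of the hypothalamus were made from 1 µg of RNA and those of the other regions from 5 µg, so that difference cannot be told apart from the region. Summed levels of region markers fitted the labelled region in each of the 72 libraries. In the column names each mouse carries its own index sequence, the same in every region. Index and stage therefore cannot be told apart. P-values measure the spread between mice of the same stage, pooled over the 6 stages of a region or over all 72 libraries. The main fits on 72 libraries did not pair the regions of a mouse.

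The start sites of 6 of these genes, which are named below for their changes, are shown. A link between the letters at the start and a change in RNA was not tested. Each window, credited to RefSeq on GRCm38.p6, runs 5′ to 3′ on the strand of the gene from 35 bases before the annotated start to 15 bases from the start on. Capitals mark an unbroken run of C or T of at least 5 letters that begins with C within 10 bases either side of the start. The letters before that C were not looked at. A marked stretch can therefore be the later part of a longer run, as in Rps27l and Rpl22l1.
Rpl35a, chr16:33056447-33056496, plus strand: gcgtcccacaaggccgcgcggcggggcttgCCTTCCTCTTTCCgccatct
Rps27, chr3:90213634-90213683, minus strand: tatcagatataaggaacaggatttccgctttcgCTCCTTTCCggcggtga
Rps27l, chr9:66946051-66946100, plus strand: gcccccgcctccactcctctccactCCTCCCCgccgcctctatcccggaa
Rpl22l1, chr3:28805473-28805522, plus strand: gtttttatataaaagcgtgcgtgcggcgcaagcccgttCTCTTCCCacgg
Rps2, chr17:24720028-24720077, plus strand: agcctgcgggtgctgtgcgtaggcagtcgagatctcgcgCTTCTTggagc
Rpl41, chr10:128549154-128549203, minus strand: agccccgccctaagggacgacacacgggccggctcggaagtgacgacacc
Where a gene had several annotated starts, the one with the longest run was taken, and the same was done for the other genes counted below. Rpl35a has 3 annotated starts and Rps27l has 2. The number of starts per gene was not compared between the ribosomal protein genes and the others. Of the 6 windows shown, that of Rpl35a held the longest run, with 13 letters, and that of Rpl41 held none. Longer runs, of up to 20 letters in Rpl27a, were found among the other genes. A window was found for 62 of the 82 genes, and 37 of them (59.7%) held such a run, with a median length of 8 letters. Among 26959 other genes with a window of the same length, 34.3% held one. A run of 8 or more letters was in 38.7% of the ribosomal protein windows and in 9.37% of the others. These are matches of letters at an annotated start, which can lie some bases from the start used in these tissues. No window was given for 20 of the 82 genes, among them Rpl21, Rpl3, Rplp1, Rps14, Rps27a and Rps29.

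The genes took a small share of all counts. The hypothalamus had the largest share, at 0.884% ± 0.0401 (SD, n = 18), followed by the hippocampus with 0.693% ± 0.0221, the cerebellum with 0.633% ± 0.0825 and the neocortex with 0.615% ± 0.0267. The spread in the cerebellum came from its virgins. Virgin mouse B had 0.875%, virgin mouse M 0.831% and virgin mouse O 0.583%, while the 15 cerebellar dams lay between 0.568% and 0.634%. In the neocortex the virgins averaged 0.580% ± 0.0228 (SD, n = 3) and the PP3 dams 0.651% ± 0.0149 (SD, n = 3).

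**Figure D1:**
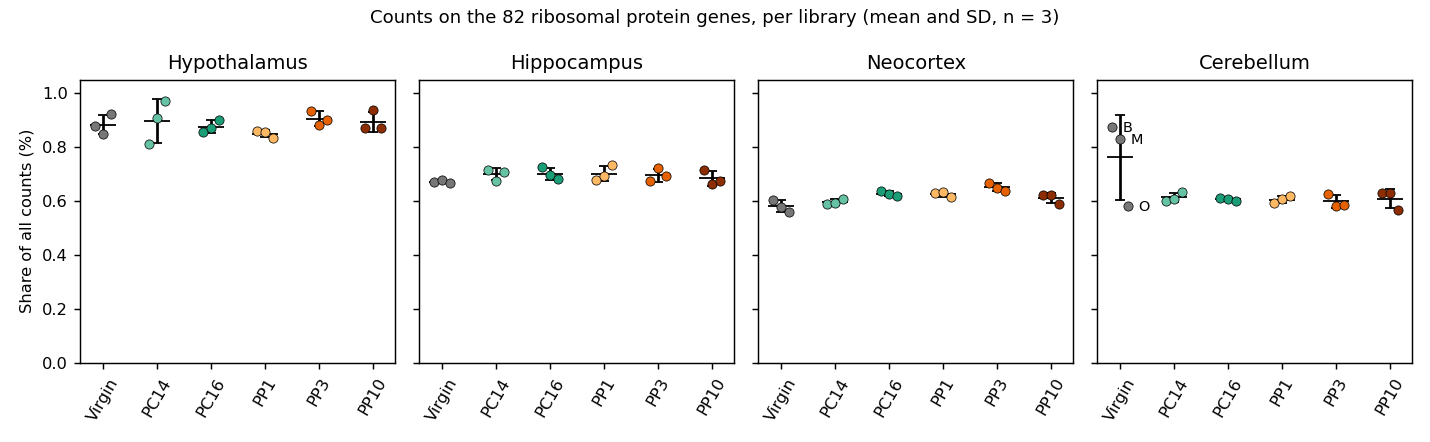
Share of all counts (%, y axis from 0) on the 82 genes in each library, by stage (x axis) and region (panels), with points for the mice and bars for the mean and SD (n = 3). Virgin mice B and M of the cerebellum, at 0.875% and 0.831%, lie above the 15 cerebellar dams at 0.568% to 0.634%.

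Levels per length differed by more than an order of magnitude between genes and kept nearly the same order in each region. Across the 82 genes the Spearman rho of mean FPKM between regions was 0.979 to 0.996, a description over genes that share libraries. The highest were Rplp1, an acidic protein of the large subunit stalk, Rpl13a, Rps15 and Rpl41, the shortest protein of the ribosome. Mean FPKM of Rplp1 was highest in the hippocampus, at 833 ± 62.2 (SD, n = 18), with 762 ± 46.5 in the hypothalamus, 647 ± 41.9 in the neocortex and 499.9 ± 61.0 in the cerebellum. In the order hypothalamus, hippocampus, neocortex, cerebellum, that of Rpl13a was 941, 600.03, 573 and 588, that of Rps15 was 774, 606, 557 and 472, and that of Rpl41 was 806, 512, 480 and 375. In the hippocampus the 18 values of Rplp1 (743 to 989) lay above those of the other 3 genes, while in the other regions neighbours in the order overlapped. The lowest were Rps15a (17.3, 12.6, 12.0 and 13.0), Rpl7l1 (15.6, 13.1, 12.8 and 17.7), Rpl7a (16.1, 15.4, 15.8 and 14.5) and Rps27l (18.7, 16.6, 11.8 and 18.9), with Rpl23a at 15.1 in the hippocampus and Rps2 at 16.3 in the cerebellum among the 3 lowest there. The median gene stood at 96.3 FPKM in the hypothalamus, with 75.8, 71.1 and 68.2 in the hippocampus, neocortex and cerebellum.

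**Figure D2:**
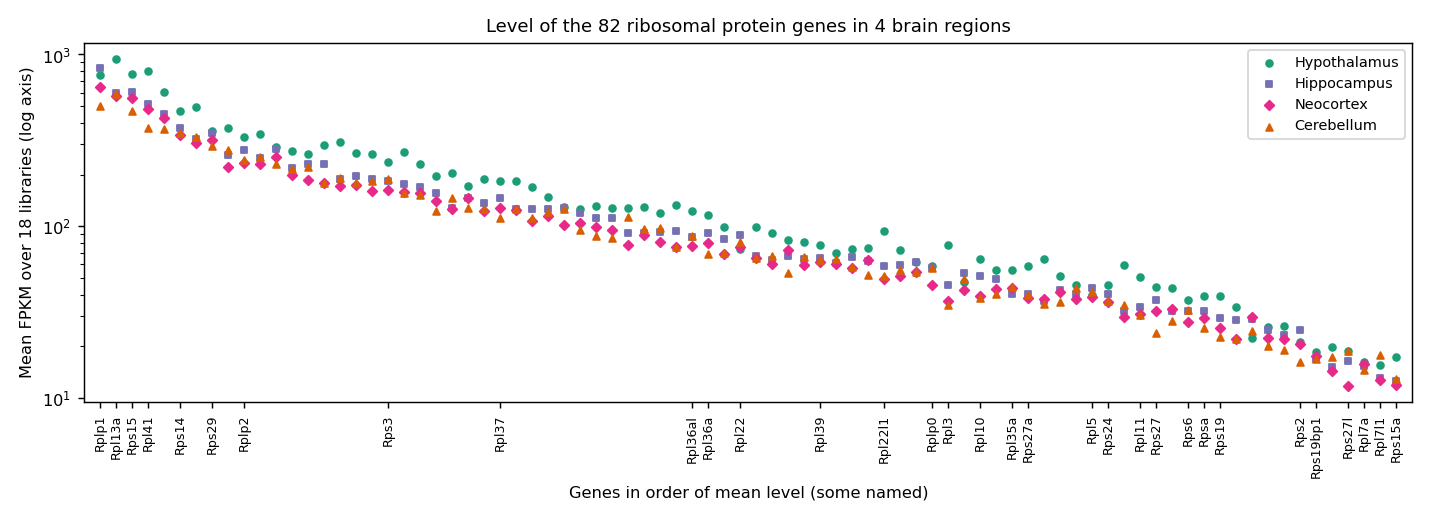
Mean FPKM (log axis) over the 18 libraries of a region for each of the 82 genes, ordered by level along the x axis, with a colour per region and names under some of the genes that the text describes. The genes run from 11.8 to 941 FPKM and the 4 regions follow nearly the same order.

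Proteins of one complex did not have RNA at one level. Of the small subunit, Rps3, which lines the mRNA entry channel, was at 236, 185, 163 and 188 FPKM in the hypothalamus, hippocampus, neocortex and cerebellum. Rps14 of the platform was at 471, 374, 342 and 351, and the short zinc finger protein Rps29 at 359.9, 352, 317 and 292. Rpsa, the laminin receptor precursor, was between 25.6 and 39.4, Rps6, the substrate of the S6 kinases, between 27.9 and 37.4, Rps19, needed for processing of ribosomal RNA, between 22.8 and 39.3 and Rps24 between 36.1 and 45.4. Rps27a, made as a fusion with ubiquitin, was between 38.4 and 58.7, and Rps19bp1 between 16.8 and 18.5. Of the large subunit, the stalk base Rplp0 was at 45.8 to 58.4 FPKM, well under its partners Rplp1 and Rplp2, the latter at 232 to 330. Rpl5 and Rpl11, which together bind a ribosomal RNA and Mdm2, were at 38.8 to 44.1 and 30.6 to 50.8. Rpl10, which joins late in assembly, was at 38.1 to 64.2, and Rpl39 of the exit tunnel at 61.8 to 78.4. These levels come with the reservation given next.

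The counts and the FPKM measured these genes differently, so the levels of single genes are uncertain. When FPKM was remade from counts, exonic length and total counts, it was under 0.5 times the deposited FPKM for 59 of the 82 genes and over 2 times for none, and the median ratio was 0.401, against 0.673 over all genes. In the annotation 59 of the 82 genes have at least 1 pseudogene that carries their name, with up to 24 for 1 gene. The Spearman rho of the ratio with the number of pseudogenes was -0.027 over 82 genes. The 20 genes highest by FPKM had a median of 1 such pseudogene and the 20 lowest a median of 3.5, and the Spearman rho of mean FPKM with the number of pseudogenes was -0.49, and both are descriptions. Rps2 has 11 named pseudogenes, Rpl21 has 15, Rpl9 has 7, Rpl35a has 6 and Rps27a has 2, so their values below may hold reads of copies. Rpl22l1, Rps27l, Rpl41, Rpl37 and Rpl11 have none by name.

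Of the 4 genes that did not pass, Rpl10l, known from testis, had 0 counts in all 72 libraries. Rpl3l, known from muscle, averaged 0.184 to 0.244 FPKM by region and Rpl39l 0.0274 to 0.0767. Rpl13 had a blank FPKM and so failed the rule, although it had a mean of 223 counts per library. The 6 names ending in -ps and a number that the annotation lists as protein-coding were left out as pseudogenes, and Rpl10-ps3 had the most counts among them.

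Pairs of paralogues were balanced differently in the regions. Rpl22l1 and Rpl22 encode paralogous proteins of the large subunit that also bind RNA. The FPKM ratio of Rpl22l1 to Rpl22 was 1.27 ± 0.0823 (SD, n = 18; 1.11 to 1.38) in the hypothalamus, but 0.657 ± 0.0523 in the hippocampus and 0.656 ± 0.0596 in the neocortex, and the cerebellum had 0.627 ± 0.0803 (0.526 to 0.845). The 18 hypothalamic ratios lay above each ratio of the other regions. Rps27l to Rps27, paralogues of the small subunit, stood at 0.426 ± 0.0649, 0.452 ± 0.0791 and 0.378 ± 0.0753 in the hypothalamus, hippocampus and neocortex and at 0.793 ± 0.152 in the cerebellum, where the range of 0.588 to 1.26 overlapped those of the hypothalamus and hippocampus but not that of the neocortex (0.246 to 0.522). Rpl36al to Rpl36a was 1.045 ± 0.0699, 0.952 ± 0.0612, 0.961 ± 0.0817 and 1.26 ± 0.125, and the ranges of all regions overlapped. The stalk proteins Rplp1 and Rplp2 had a ratio of 2.31 ± 0.121, 2.98 ± 0.122, 2.79 ± 0.131 and 2.05 ± 0.0998.

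Which genes differ between regions was asked by comparing each region with the mean of the other 3 on all 72 libraries. In the hypothalamus 68 of the 82 genes were higher and 5 lower by the quasi-likelihood test of edgeR (Benjamini-Hochberg adjusted p under 0.05), with a median log2 fold change of 0.30, where 86.9% of all 15348 genes tested were called. Rpl3, which lies near the peptidyl transferase centre, was higher by the most, 0.90 ± 0.022 (log2 ± SE), with 77.5 ± 4.0 FPKM in the hypothalamus against 45.8 ± 3.7, 36.6 ± 2.2 and 34.9 ± 4.4 (SD, n = 18) in the hippocampus, neocortex and cerebellum. Rps28 was higher by 0.81 and Rpl27 by 0.78, while Rpl22 was lower, at -0.55 ± 0.018, with Rpl29 at -0.41 and Rpl5 at -0.38. In the cerebellum 4 genes were higher and 69 lower, with a median of -0.25, and 86.9% of all genes were called. Rpl41 (-0.71 ± 0.032), Rplp1 (-0.67 ± 0.025) and Rps27 (-0.63 ± 0.061) were lowest there against the other regions, and Rpl7l1 (0.29 ± 0.022), Rps27l (0.20 ± 0.064) and Rpl22 (0.13 ± 0.018) were higher.

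The hippocampus and neocortex stood between them. In the hippocampus 36 genes were higher and 19 lower, with a median of 0.04 and 78.3% of all genes called, and Rplp1 (0.45 ± 0.024), Rpl22 (0.41 ± 0.017) and Rps2 (0.39 ± 0.029) were higher, while Rpl27 (-0.25), Rpl28 (-0.23) and Rps15a (-0.22) were lower. In the neocortex 15 were higher and 46 lower, with a median of -0.09 and 82.8% called. Rpl29 (0.37 ± 0.036), Rpl12 (0.32 ± 0.024) and Rpl15 (0.21 ± 0.020) were higher and Rps27l (-0.49 ± 0.069), Rpl18 (-0.36 ± 0.031) and Rpl3 (-0.33 ± 0.025) lower. The number called was near or below the share called among all genes in each region, so the number alone says nothing particular of these genes. The split depended on the scale in 2 regions. On log2 FPKM with limma it was 27 higher and 29 lower in the hippocampus and 2 higher and 71 lower in the neocortex, where Rpl15 turned to -0.07, and with an offset for exonic length it was 26 higher and 33 lower in the neocortex. Leaving out the libraries of virgin mice B and M, which stand apart in the cerebellum, gave 74, 58, 59 and 76 genes called for the hypothalamus, hippocampus, neocortex and cerebellum. In bulk tissue, more cells that hold much of this RNA and more RNA per cell cannot be told apart.

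These genes are short, and a library that gives more counts to short genes gives more to them. Their median exonic length was 1755 bases, against 4334 for all genes tested in the neocortex, and their median principal transcript was 681 bases against 2841. Of the 82, 53 fell in the shortest quintile of exonic length and 2 in quintile 4, with none in the longest. In each library the slope of log2 CPM, relative to the mean of the region, on log2 exonic length was taken over the other genes. In the cerebellum virgin mice B and M had slopes of -0.131 and -0.095 per doubling of length, so short genes were high in them, while virgin mouse O had 0.033. Mouse O lay within the 15 dams. The 82 genes stood on average 0.45 (mouse B) and 0.39 (mouse M) above the mean of the region on the log2 scale and at -0.13 in mouse O. The median CV of these genes within a group of 3 mice was 21.6% in cerebellar virgins and 3.07% to 8.72% in the other 23 groups.

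**Figure D3:**
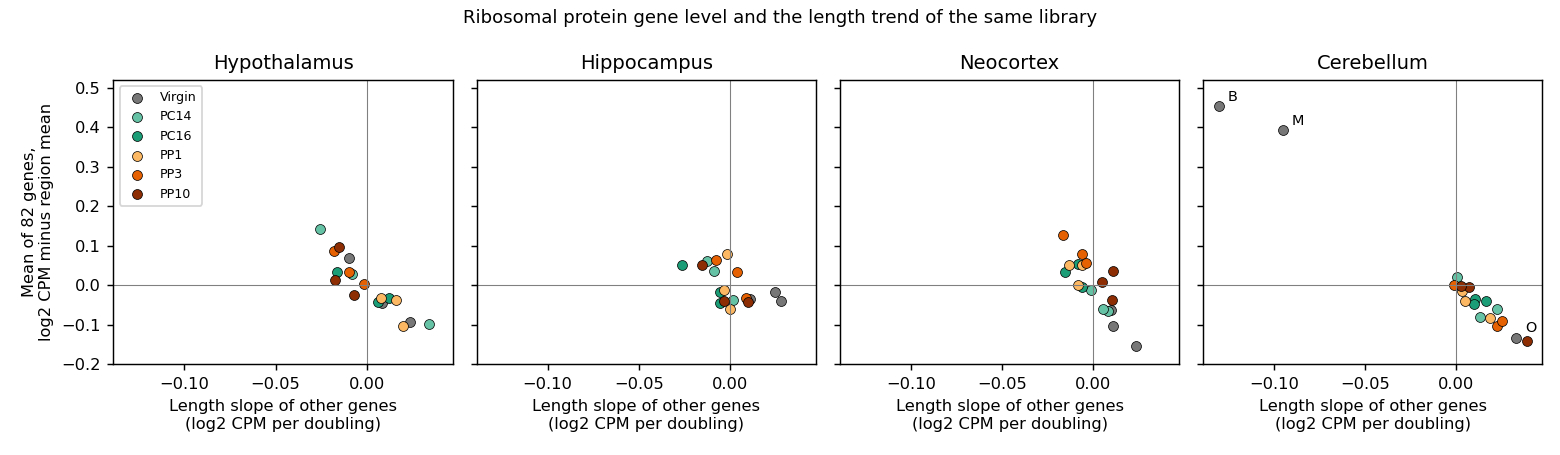
Mean log2 CPM of the 82 genes minus the mean of the region (y axis) against the slope of log2 CPM on log2 exonic length over the other genes (x axis, log2 CPM per doubling), 1 point per library, virgins marked. The points slope downwards in each region, with the widest scatter in the hippocampus (r of -0.57), and cerebellar virgin mice B and M sit apart at the upper left with slopes of -0.131 and -0.095.

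The level of the genes followed this slope from library to library. Over the 18 libraries of the hypothalamus, hippocampus, neocortex and cerebellum, Pearson's r between slope and mean level was -0.91, -0.57, -0.83 and -0.99. Spearman's rho was -0.92, -0.57, -0.71 and -0.95. Without the 2 libraries farthest from the median slope, r was -0.89, -0.60, -0.70 and -0.93 over 16 libraries. These are descriptions of libraries that share depth and scaling with both axes, and no p is given. The results by stage are therefore given beside the length trend, and those of the cerebellum with and without virgin mice B and M.

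**Figure D4:**
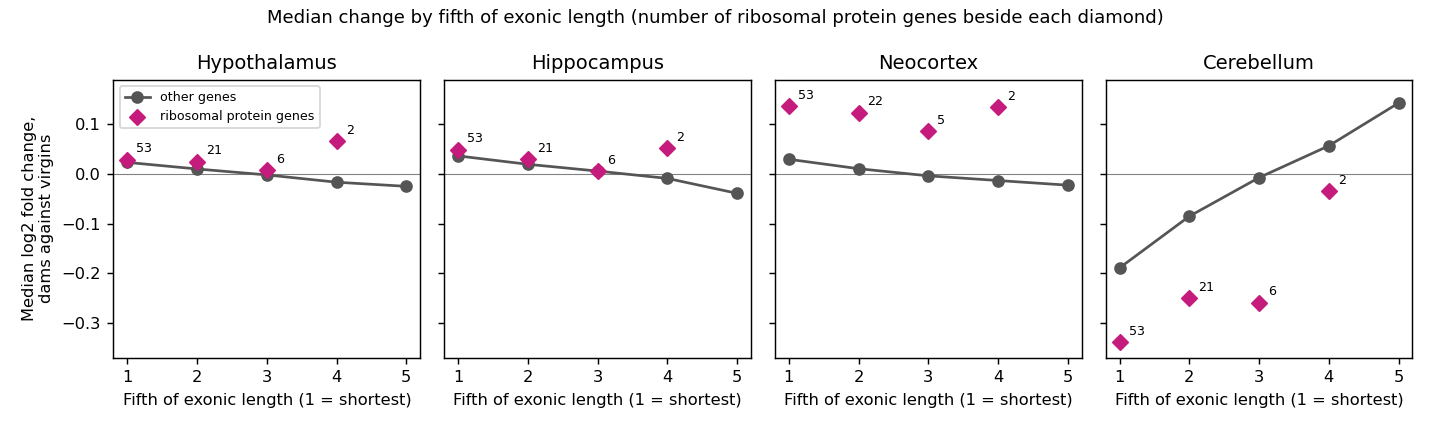
Median log2 fold change of dams against virgins (y axis) by quintile of exonic length (x axis, 1 is shortest), for the other genes and for the ribosomal protein genes (diamonds with the number of genes), 1 panel per region. In the neocortex the diamonds sit above the other genes of the same quintile (0.14 against 0.03 in the shortest), and in the cerebellum both fall towards the shortest quintile (-0.34 against -0.19).

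In the neocortex, RNA of ribosomal protein genes was higher in dams. Of the 82 genes, 27 rose in dams against virgins and none fell (edgeR quasi-likelihood test, 15 dams and 3 virgins, adjusted p under 0.05), where 7% of all genes tested were called. The median log2 fold change was 0.13, against 0.00 over all genes, and 76 of 82 were above 0. The 27 held 12 genes with Rps names and 15 with Rpl names. In the shortest quintile of length the 53 ribosomal protein genes had a median of 0.14 and the other genes one of 0.03.

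Rpl37, a zinc finger protein of the large subunit, was at 66.5, 61.5 and 61.9 CPM in virgins B, M and O (CPM, counts scaled to the TMM-adjusted size of the library). In dams it was at 69.2, 67.3 and 70.3 at PC14, 72.4, 73.8 and 71.7 at PC16, 75.3, 75.7 and 71.4 at PP1, 79.3, 82.9 and 83.5 at PP3 and 74.8, 73.4 and 76.1 at PP10. All 15 dams lay above the 3 virgins, and the change was 0.23 ± 0.035 (log2 ± SE, adjusted p = 3.0e-04, edgeR). Full separation was seen for 6 of the 82 genes, beside 1.07% of all genes tested, and these include Rpl10a, Rps6, Rps29 and Rps12. Rps29 rose by 0.19 ± 0.039, with 54.3 to 56.6 CPM in virgins and 58.7 to 71.6 CPM in dams. The test was not passed by Rpl10a at 0.10 ± 0.032 (adjusted p = 0.060), Rps6 at 0.16 ± 0.049 (adjusted p = 0.054) or Rps12 at 0.20 ± 0.065 (adjusted p = 0.061, all from edgeR).

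The largest rise was that of Rpl35a, whose start window above holds the run of 13 pyrimidines. It stood at 24.4, 23.8 and 22.2 CPM in virgins B, M and O and at 23.9 to 33.7 CPM in dams (median 28.9), so 1 dam at PC14 overlapped the virgins. The change was 0.32 ± 0.065 (adjusted p = 0.0053, edgeR). Rps27a was at 32.5, 31.3 and 31.2 CPM in virgins and at 30.8 to 43.9 in dams, overlapping in 1 dam, and rose by 0.28 ± 0.055 (adjusted p = 0.0038, edgeR). Among genes with a known part in the ribosome, the stalk proteins Rplp1 (0.18 ± 0.034) and Rplp2 (0.16 ± 0.035) rose, as did Rpl10 (0.22 ± 0.062), while the stalk base Rplp0 was at 0.04 ± 0.057 and did not pass. Rpl3 (0.04), Rpl5 (0.09), Rpl11 (0.20), Rpl22 (0.08), Rpl22l1 (0.04), Rpl36a (0.11), Rpl36al (0.06), Rpl39 (0.04), Rpl41 (-0.06) and Rpl7l1 (0.17) of the Rpl names, and Rpsa (0.14), Rps3 (0.07), Rps14 (0.05), Rps19 (0.29), Rps24 (0.19), Rps27 (0.22), Rps27l (0.03) and Rps19bp1 (0.18) of the Rps names, did not pass. Rps19 and Rps27 had an SE of 0.096 and 0.118.

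**Figure D5:**
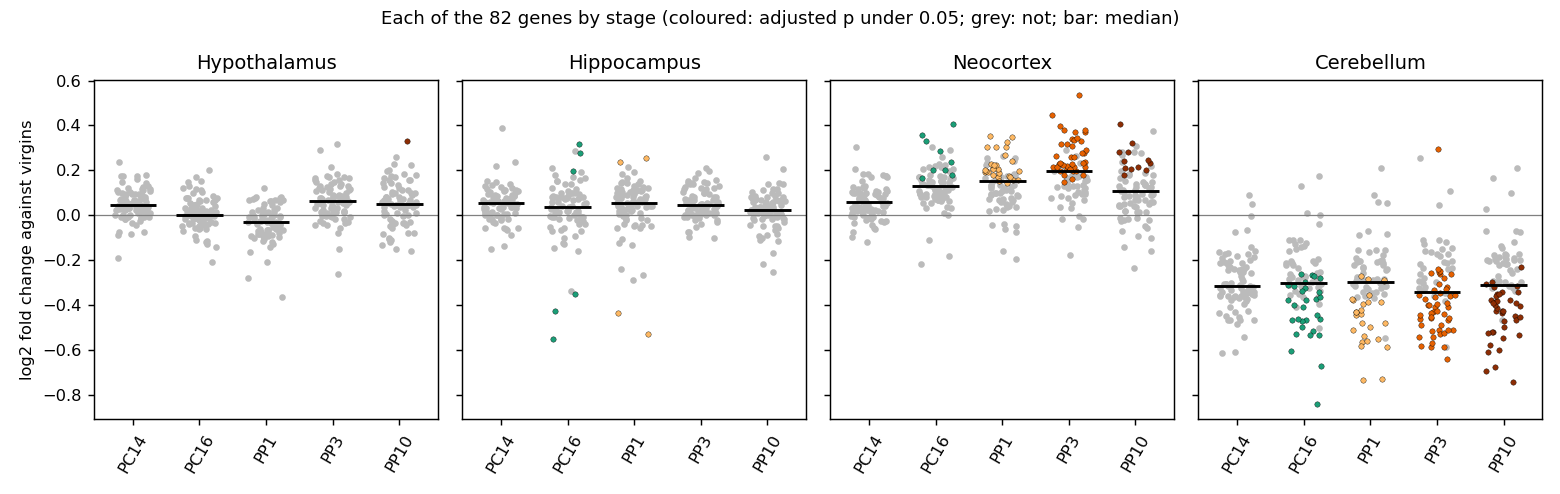
log2 fold change against virgins (y axis) of each of the 82 genes at PC14, PC16, PP1, PP3 and PP10 (x axis) in the 4 regions (panels), coloured where the adjusted p was under 0.05, with a bar for the median. In the neocortex the medians run from 0.06 at PC14 to 0.20 at PP3, and in the cerebellum they lie between -0.34 and -0.30 at the 5 stages.

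By stage, most genes in the neocortex were called at PP3. No gene was called at PC14 (median 0.06, 0.0449% of all genes called), where 66 of the 82 were above 0, beside 79, 75, 77 and 68 at PC16, PP1, PP3 and PP10. PC14 was not tested against PC16. At PC16, 9 genes rose (median 0.13, 2.13% of all genes called), at PP1 28 (median 0.15, 12.9%), at PP3 43 (median 0.20, 8.02%) and at PP10 12 (median 0.11, 2.04%), and none fell at any stage. At PP3 21 of the genes with Rps names and 22 of those with Rpl names rose. Rpl35a rose most at PC16, by 0.41 ± 0.082 from 22.2 to 24.4 CPM in virgins to 30.02 to 32.1 CPM, Rps27 at PP3 by 0.54 ± 0.146 and Rpl6 at PP10 by 0.40 ± 0.088. Rps27 was low, with 5.19 to 6.24 CPM in virgins and 6.92 to 9.01 CPM at PP3. Rps27rt was at 52.5 to 56.3 CPM in virgins and 65.5 to 68.9 CPM at PP3, and how reads were divided between it and Rps27 was not tested. Rpl6 was at 23.9 to 25.6 CPM in virgins and 31.6 to 34.9 CPM at PP10. The stages share the 3 virgins.

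Nursing and pregnant dams, compared without the virgins, differed less. The mean of PP1, PP3 and PP10 was above that of PC14 and PC16 for 3 genes in the neocortex (median 0.05, 1.8% of all genes called). Rpl9 rose by 0.17 ± 0.036 (adjusted p = 0.017, edgeR), from 52.3 to 59.3 CPM in the 6 pregnant dams to 55.5 to 66.5 CPM in the 9 nursing dams, so the ranges overlapped. Rps29 rose by 0.13 ± 0.032 (adjusted p = 0.039, edgeR) and Rpl37 by 0.12 (adjusted p = 0.032, edgeR). The count was 0 to 1 without mouse E1467, E1655, E1658, P1071 or P146. No gene was called in this comparison in the hypothalamus (median 0.00, 0.245% of all genes called), the hippocampus (median 0.00, 0.324%) or the cerebellum (median -0.01, 0.174%).

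The count of 27 genes in the neocortex depended on the virgins. Leaving out mouse B gave 26, leaving out mouse M 13 and leaving out mouse O 8. The share of counts on these genes in mouse O was the lowest of the 18 libraries, at 0.559%. At PC16 it was 5 without virgin M and 2 without virgin O or mouse E1654, at PP1 16 without virgin M, 9 without virgin O, 11 without mouse P146 and 14 without mouse P149. At PP3 it was 17 without mouse P347 and 21 without virgin O, and at PP10 it was 2 to 4 without virgin M, virgin O or any one of the 3 PP10 mice. With an offset for exonic length 20 of 82 were called in dams (19 higher and 1 lower, median 0.10), and with one for the principal transcript 18 (17 higher and 1 lower, median 0.09). The Spearman rho between log2 fold change and exonic length over the other genes was -0.16 in dams and -0.03 at PP10, where the median of the 82 genes was 0.11. The mean length slope of the libraries was 0.0148 in virgins, 0.0043 at PC14 and 0.0086 at PP10. It was -0.0099 at PC16, -0.0091 at PP1 and -0.0087 at PP3, so PP10 was the stage nearest the virgins in this trend. Markers of several cell types moved with the same comparison. The summed level of red blood cell markers was 143 to 189 CPM in virgins and 154 to 875 CPM in dams, 4 of the 5 were called higher in dams and none was at 0. Of the other lists, 3 of 7 neuron, 2 of 5 neocortex and 1 of 10 microglia markers were called higher and 1 of 4 cerebellum markers lower. Their part in the result was not tested.

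In the cerebellum ribosomal protein genes were lower in dams, and this rested on virgin mice B and M. With all libraries, 62 of the 82 genes fell in dams against virgins and none rose (edgeR quasi-likelihood test, 15 dams and 3 virgins), where 29.5% of all genes tested were called. The 62 held 24 genes with Rps names and 38 with Rpl names, and the median log2 fold change was -0.31. The test pooled the spread of all stages. The median CV of the 82 genes was 21.6% in cerebellar virgins and 3.07% to 6.87% at the other stages of this region. The count fell to 4 when mouse B was left out and to 6 when mouse M was, and it was 78 when mouse O was. Without both B and M none was called at an adjusted p under 0.05 by edgeR, with 40 of all genes called, the median was 0.08 and 70 of 82 genes were above 0, but this leaves 1 virgin library. The change followed length among the other genes too, with a Spearman rho of 0.49 for exonic length, 0.55 for the longest transcript and 0.62 for the principal transcript. In the shortest quintile the other genes had a median of -0.19 and the ribosomal protein genes one of -0.34. With a length offset 38 genes were called (2 higher and 36 lower, median -0.16), and with one for the principal transcript 26 (4 higher and 22 lower, median -0.08).

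Single genes in the cerebellum show the same 2 libraries. Rpl22l1 was at 35.2 and 31.2 CPM in virgins B and M, at 18.6 in virgin O, and at 15.2 to 21.1 CPM in the 15 dams (median 17.9). Virgin O thus lay inside the dams, and the change of -0.64 ± 0.112 (adjusted p = 0.0024, edgeR) came from the other 2 virgins. Rps27l was at 13.9, 12.2 and 5.68 CPM in virgins B, M and O and at 5.41 to 7.41 CPM in dams (-0.70 ± 0.162, adjusted p = 0.0066, edgeR), and without B and M its difference turned to 0.20. Rpl41 was at 392, 340 and 199.98 CPM in virgins and at 190 to 222 CPM in dams (-0.57 ± 0.106, adjusted p = 0.0028, edgeR), and turned to 0.07. The 3 genes whose 15 dams all lay below all 3 virgins were Rpl21, Rpl34 and Rpl22, beside 1.24% of all genes tested. Rpl21 was at 39.3, 37.2 and 29.95 CPM in virgins and 21.1 to 28.3 in dams (-0.54 ± 0.076), Rpl34 at 59.1, 56.3 and 42.6 against 31.7 to 42.4 (-0.48 ± 0.082) and Rpl22 at 111, 105 and 99.1 against 81.9 to 96.1 (-0.25 ± 0.045). In each of them virgin O was the virgin nearest the dams.

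Other proteins of known part fell likewise in the fit with all virgins. Rps3 fell by 0.42 on the log2 scale, Rps14 by 0.38, Rps29 by 0.34 and Rps19bp1 by 0.42, and Rpsa and Rps24 were lower by less (-0.24 and -0.20). Of the Rpl names, Rpl36al and Rpl39 both fell by 0.51, Rplp2 by 0.29, Rplp1 by 0.26, Rplp0 and Rpl7l1 by 0.24 and Rpl3 and Rpl5 by 0.22. Rps6 (0.09), Rps19 (-0.21), Rps27 (-0.28), Rps27a (-0.18), Rpl10 (-0.16), Rpl11 (-0.21) and Rpl36a (-0.22) did not pass. Rps12, at 0.01 ± 0.076, did not pass either.

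The cerebellar stages were alike. The median was -0.32 at PC14 with no gene called (0.156% of all genes), -0.30 at PC16 with 30 lower (11%), -0.30 at PP1 with 27 lower (9.19%), -0.34 at PP3 with 48 lower and Rps15a higher (15.4%) and -0.31 at PP10 with 39 lower (16.2%). Without virgins B and M no gene was called at PC16, PP1, PP3 or PP10, while 17, 18, 23 and 22 were called with a length offset. Rps27l fell most at PC16 and PP1, by 0.84 ± 0.222 and 0.73 ± 0.221, Rpl41 at PP3 by 0.64 ± 0.143 and Rpl22l1 at PP10 by 0.74 ± 0.151. The call of Rps27l was kept in 19 alternatives and lost in 8 at PC16. At PP1 it was kept in 6 and lost in 21, and at each of these stages its direction reversed in 1 more. The calls of Rpl41 and Rpl22l1 were lost in 6 and 5 alternatives. Rps15a was at 66.4, 68.2 and 69.4 CPM in virgins and at 75.3, 86.4 and 88.2 CPM at PP3, a rise of 0.29 ± 0.070 (adjusted p = 0.018, edgeR) in which B and M did not stand apart from virgin O. Its deposited FPKM overlapped, at 14.2, 12.2 and 11.2 in virgins B, M and O and 12.5, 14.4 and 15.5 at PP3. The call was kept in 21 alternatives and lost in 7. Choroid plexus markers differed between the same virgins, with a sum of 4026 CPM in virgin B, 4699.9 in virgin M and 1225 in virgin O. In dams they ran from 132 to 3909 CPM, so virgins B and M lay above every dam and virgin O within their range. Of the other lists, 4 of 10 microglia and 5 of 9 oligodendrocyte markers were called lower and 4 of 8 astrocyte markers higher in cerebellar dams. Of 7 neuron markers 2 were called higher and 2 lower, of 8 endothelial markers 2 higher and 1 lower, and of 5 cerebellum markers 1 each way. Their part in the result was not tested.

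In the hippocampus few genes changed, and those mainly at PC16 and PP1. In dams against virgins 1 gene rose and 1 fell, the latter Rps2 by 0.20 ± 0.058 (adjusted p = 0.040, edgeR), with a median of 0.04 and 6.14% of all genes called. Both calls rested on single libraries, and that of Rps2 was lost in 11 of 26 alternatives. The count was 0 without virgin B, virgin O or mouse E1464, E1655 or P1063, 1 without any of 6 other dams and 5 without virgin M. At PC16 3 genes rose and 3 fell (4.18% of all genes called) and at PP1 2 rose and 2 fell (2.48%). No gene was called at PC14 (0.139% of all genes), PP3 (0.894%) or PP10 (4.28%), and the medians of the 5 stages were 0.06, 0.04, 0.06, 0.05 and 0.02. Without virgin B 1 gene was left at PC16 and 1 at PP1, without mouse E1654 1 at PC16, without virgin O or mouse E1655 3 at PC16, and without virgin O or any of the 3 PP1 mice 2 at PP1.

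Rps2, a protein of the small subunit whose start window above holds a run of 6 letters, was at 32.6, 31.2 and 37.5 CPM in virgins and at 34.7, 31.8 and 35.5 CPM at PC14. It was at 25.0, 22.3 and 21.7 CPM at PC16 and at 21.9, 24.3 and 23.9 CPM at PP1, and then at 34.8, 35.9 and 35.5 CPM at PP3 and 35.4, 32.5 and 31.8 CPM at PP10. The 6 libraries of PC16 and PP1 did not overlap the other 12. Stage cannot be told apart from the index sequence of the libraries here. The change was -0.55 ± 0.077 at PC16 (adjusted p = 0.0012, edgeR) and -0.53 ± 0.077 at PP1 (adjusted p = 0.0014, edgeR), and both held in all 27 alternatives run, with and without each library. Rpl35a followed the same stages, at 22.2 to 23.8 CPM in the 6 libraries of PC16 and PP1 and 24.4 to 33.6 CPM in the other 12. It fell by 0.43 at PC16 and by 0.44 at PP1, and Rpl9 fell by 0.35 at PC16. In the other direction, Rpl21 was at 40.3, 40.9 and 41.7 CPM at PC16 and 34.4, 40.8 and 42.2 at PP1, against 32.2 to 33.4 in virgins. It rose by 0.32 ± 0.065 at PC16 (adjusted p = 0.015, edgeR) and by 0.25 ± 0.065 at PP1 (adjusted p = 0.045, edgeR), a call lost at PP1 in 21 of 27 alternatives. Rps14 rose by 0.28 and 0.24 at these stages and Rpl41 by 0.20 at PC16. Rps2, Rpl35a, Rpl9 and Rpl21 have named pseudogenes, and reads of gene and copy cannot be told apart in these counts. Choroid plexus markers in the hippocampus summed to 3815 to 6081 CPM at PC16 and 238 to 7090 CPM at PP1, within the 202 to 7499.8 CPM of PP3, and to 546 to 2019 CPM in virgins. Of the marker lists in hippocampal dams, 3 of 5 red blood cell, 1 of 12 choroid plexus, 1 of 8 astrocyte and 1 of 8 endothelial markers were called higher. Called lower were 2 of 5 hippocampus, 1 of 7 neuron, 1 of 8 astrocyte and 1 of 5 neocortex markers. Their part in these changes was not tested.

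In the hypothalamus 1 gene was called at 1 stage. No gene passed in dams against virgins (edgeR, median 0.03, 4.75% of all genes called), with 7 of 82 at an unadjusted p under 0.05, and none by the DESeq2 Wald test. The count was 4 without virgin O and 2 without mouse E1464. None passed at PC14 (1.36% of all genes called), PC16 (1.88%), PP1 (0.744%) or PP3 (0.705%), with medians of 0.04, 0.00, -0.03 and 0.06. At PP10 (median 0.05, 6.07% of all genes called) Rpl11 rose by 0.33 ± 0.089 (adjusted p = 0.036, edgeR). It was at 21.0, 22.0 and 24.04 CPM in virgins and 27.1, 27.9 and 29.2 CPM at PP10. At PC14 it ran from 21.4 to 28.1 CPM and at PP3 from 26.1 to 29.2 CPM, so PP10 was not apart from the other stages. The call was lost in 6 of 27 alternatives. The count at PP10 was 0 without virgin B, virgin M or any of the 3 PP10 mice, 5 without virgin O, 3 without mouse E1468 and 2 without mouse E1464.

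The regions thus moved differently, and this was tested on all 72 libraries. The difference of dams from virgins varied among the regions for 76 of the 82 genes (edgeR interaction F test), where 36.6% of all genes were called. Of the 82, 73 were above 0 in the neocortex and below 0 in the cerebellum, against 26.3% of all genes tested in both. Called higher in the neocortex and lower in the cerebellum were 20, against 0.729% of all genes tested in both. The cerebellar calls rest on virgin mice B and M. The interaction was called for 40 genes without mouse B and for 53 without mouse M. Leaving out both left 1 virgin mouse and gave 0, with 5 of all genes called, so that fit could call little of anything. Without the cerebellum 3 genes, among them Rpl35a (adjusted p = 0.0034) and Rpl9 (adjusted p = 0.024), were called by edgeR. With the mouse as a replicate block the count was 76.

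Other genes of translation were counted beside them in dams against virgins, in the fits with all virgins. Of all genes tested, the cerebellum had 29.5% called, the neocortex 7%, the hippocampus 6.14% and the hypothalamus 4.75%. The cerebellar fit includes virgin mice B and M, and its changes followed length among other genes too. What these mice and gene length add to the cerebellar counts of the lists below was not tested. Of 21 tested translation factors and other genes reported to carry the TOP motif, 5 rose in the neocortex and none fell, with a median of 0.05 and all 21 above 0, and Eif3h (0.13 ± 0.033) and Eif3f (0.12 ± 0.035), subunits of an initiation factor, rose most. In the cerebellum 1 rose and 13 fell (median -0.18), with Fau, a ubiquitin-like fusion with a small subunit protein, at -0.35 and the elongation factor Eef1g at -0.29. In the hypothalamus the elongation factor Eef2 rose (0.13 ± 0.030), and in the hippocampus none was called. Of 46 genes of ribosome assembly, none was called in the neocortex or hypothalamus, Ncl fell in the hippocampus (-0.16 ± 0.026), and 16 fell and 1 rose in the cerebellum, with Nop10 at -0.55 and Nop16 at -0.39. At PP3 alone in the neocortex, the 2 largest called changes of this list were falls, of Polr1b (-0.30 ± 0.093) and Rrp12 (-0.30 ± 0.071). Those of the TOP list there were rises, of Eif3f (0.18 ± 0.045) and Tpt1 (0.17 ± 0.037). Of 23 genes of the mTOR pathway, Ddit4, which inhibits it, fell in the hippocampus (-0.38 ± 0.074), the neocortex (-0.36 ± 0.101) and the cerebellum (-0.43 ± 0.055). Sesn1 fell in the hypothalamus (-0.23), Deptor rose in the hippocampus (0.47) and Sesn3 rose in the cerebellum (0.65). In all, 2 of the 23 rose and 2 fell in the hippocampus and 6 rose and 3 fell in the cerebellum. Of 76 proteins of the mitochondrial ribosome, which is built from another set of genes, 4 rose in the neocortex (median 0.07, Mrps11 0.23 and Mrpl30 0.21), 3 in the hippocampus (median 0.03, Mrps6 0.34 and Mrpl14 0.29) and none in the hypothalamus (median 0.05). In the cerebellum 41 fell and 1 rose (median -0.22, Mrps21 -0.55 and Mrpl54 -0.53).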

How the data were processed

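RNA-seq libraries of 4 brain regions from 18 mice were analysed. Per the submitters' processing notes and the paper, reads were trimmed with Trimmomatic 0.32 and aligned with TopHat2 2.0.8 to the Ensembl mouse genome (GRCm38). The authors made the deposited counts, whole numbers per gene without normalization, with easyRNASeq. The deposited FPKM came from Cufflinks 2.1.1, which the authors ran with effective length correction switched off. Blank FPKM cells were set to 0 for the filter and for the fits on FPKM. How either step treated reads with several matches was not given in the sources used here, and this bears on genes with pseudogenes.

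Counts of the 18 libraries of a region were fitted together (edgeR 4.0.16 under R 4.3.3) with a coefficient for each stage, TMM scaling and the quasi-likelihood F test. Genes tested had an FPKM of 1 or more in each of the 3 mice of some stage. Regions and the interaction were fitted on 72 libraries. Adjusted p values are Benjamini-Hochberg over all genes of a comparison, called under 0.05. Symbols, exonic lengths and pseudogene names came from GENCODE M21, which matched 37693 of 39179 IDs, and start windows from RefSeq. None of 72 replicate pairs was identical. Scripts were tested on simulated data.

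Alternatives were DESeq2 1.42.0 size factors and Wald test, TMM over 72 libraries, limma 3.58.1 on log2(FPKM + 0.1), edgeR's exact test on 6 libraries, no filter, offsets for exonic length, length and GC, or principal transcript, the mouse as a block, and leaving out libraries. The principal transcript offset, the fits without virgin mice B and M and the interaction without the cerebellum were chosen after seeing the data. Genes named were the 3 largest called changes each way in dams and regions, 1 each way per stage, 2 each way for nursing against pregnancy, the 3 highest and lowest in level per region, and paralogues and proteins of known part. Genes whose dams did not overlap the virgins, and Rpl35a, Rps14, Rpl41 and Rpl9 in the hippocampus, were added after their values were seen. The genes and lists were chosen with earlier results of these data known. Some genes that this rule names are not reported here.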

Additional observations from a re-analysis of the deposited data

Results flagged for a closer look

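The difference of dams from virgins varied among the 4 regions for 76 of the 82 ribosomal protein genes in the interaction test on 72 libraries, which is why it is listed here. The genes were mostly above 0 in the neocortex and below 0 in the cerebellum, and cerebellar virgin mice B and M stand apart in the length slope.

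Rpl13 had a mean of 223 counts per library but a blank FPKM, so it entered no comparison. Rpl10-ps3, a name left out as a pseudogene although the annotation lists it as protein-coding, had a mean of 60.5 counts per library and entered none either.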

How the results depend on the processing

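Of 1246 alternative values of the named changes, 1095 kept their call and direction, 5 reversed and the rest lost the call. The reversed ones were Rps27l in cerebellar dams (0.20), at PC16 (0.056) and at PP1 (0.16) and Rpl41 in cerebellar dams (0.066), all without virgin mice B and M, and Rpl15 in the neocortex against the other regions (-0.071 on log2 FPKM). Of 881 alternative counts, 739 lay within 1.5 times the main one and 142 did not. The cause was not tested except where fewer virgins were left. Counts that moved, of 82 genes, were as follows.

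In the hypothalamus, dams gave 1 with the principal transcript offset, PP3 1 with the exact test and PP10 2 with the DESeq2 Wald test or principal transcript offset and 0 with limma. In the hippocampus, dams gave 1 with DESeq2 size factors, a length or a length and GC offset and 0 with the Wald test, PC14 1 with the exact test, and nursing against pregnancy 1 with the Wald test or no filter. In the neocortex, PC14 gave 1 without the filter, PC16 5 with the exact test, 4 with any length offset and 17 without the filter, PP1 15 with length and 16 with length and GC, principal transcript or the Wald test, PP10 6 with limma and nursing against pregnancy 1 with the Wald test. In the cerebellum, dams gave 38 with length, 26 with principal transcript and 0 without virgins B and M. PC14 gave 20 with the Wald test, 1 with length and GC and 35 without the filter. PC16 gave 0 with the exact test, 16 with length and GC, 17 with length, 48 without the filter, 6 with principal transcript and 0 without B and M. PP1 gave 2 with the exact test, 15 with limma, 42 without the filter, 11 with principal transcript and 0 without B and M. PP3 gave 2, 25 with length and GC or limma, 23 with length, 13 and 0, and PP10 gave 1, 22 with either length offset, 17 with limma, 13 and 0. Nursing against pregnancy gave 1 with principal transcript or without B and M. The interaction gave 0 without B and M and 3 without the cerebellum.

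Leaving out 1 library at a time gave in the hypothalamus 0 to 4 genes for dams, 0 to 1 at PP3 and 0 to 5 at PP10. In the hippocampus it gave 0 to 5 for dams, 1 to 8 at PC16, 1 to 4 at PP1 and 0 to 1 for nursing against pregnancy. In the neocortex it gave 8 to 28 for dams, 2 to 10 at PC16, 9 to 27 at PP1, 17 to 43 at PP3, 2 to 12 at PP10 and 0 to 3 for nursing against pregnancy. In the cerebellum it gave 4 to 78 for dams, 0 to 74 at PC14, 0 to 76 at PC16, 0 to 73 at PP1, 1 to 78 at PP3, 1 to 76 at PP10 and 0 to 1 for nursing against pregnancy. Leaving out 1 mouse gave 40 to 79 for the interaction and 72 to 74, 53 to 58, 59 to 66 and 72 to 75 for the hypothalamus, hippocampus, neocortex and cerebellum against the other regions. With the mouse as a replicate block the regions gave 73, 56, 62 and 74 and the interaction 76, and no paired analysis was possible between stages because each mouse was at 1 stage.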
